A study of Mus musculus with 9 samples.

Results

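The ligands Gas6 and Pros1 and the TAM receptor kinases Tyro3, Axl and Mertk were followed in sorted bone marrow stromal cells after treatment of mice with granulocyte colony-stimulating factor (G-CSF) or saline. A gene was represented by each probe set whose only symbol in the platform table was that gene's, which gave 1 probe set for each of the 5 genes, out of 21789 probe sets with 1 symbol and 35553 in all. The cells were CXCL12-abundant reticular (CAR) cells, stromal cells of the marrow that make the chemokine Cxcl12 and are sorted as lineage-negative cells bright for green fluorescent protein. The 4 PBS arrays came from Cxcl12+/gfp mice given phosphate-buffered saline alone, and the 5 G-CSF arrays came from Cxcl12+/gfp mice dosed with G-CSF (250 µg/kg/d), both for 5 days. Animals of both groups therefore carried the reporter in 1 Cxcl12 copy. Strain, sex, age and the number of mice behind each array were not stated in these sources.

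Gas6 and protein S (the product of Pros1) are secreted proteins that carry a Gla domain, a stretch of glutamates carboxylated with the help of vitamin K, with which they bind phosphatidylserine on dying cells. Their other end binds TAM receptors on a neighbouring cell, so that the ligand bridges the dying cell to a phagocyte and the receptor kinase also dampens inflammatory signalling. Gas6 binds all TAM receptors, and most tightly Axl, whereas protein S acts through Tyro3 and Mertk and is also an anticoagulant. In marrow, Mertk and Axl are best known from macrophages, and stromal cells are a source of Gas6.

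After G-CSF, the ligand Gas6 fell 3.09-fold and the receptor Axl rose 2.16-fold in the sorted cells. Pros1 was higher by 0.83 on the log2 scale and Mertk lower by 0.65, with groups that did not overlap, but neither passed the threshold. Tyro3 was close to the background level of the arrays in both groups. Changes were tested with limma over all 21789 probe sets, with a call at a Benjamini-Hochberg adjusted p under 0.05. Of the 5 genes, 2 were called, where 1.62% of all probe sets were called (0.877% lower and 0.743% higher in G-CSF). The groups did not overlap for 4 of the 5 genes, against 4.65% of all probe sets (2.46% with all G-CSF arrays below PBS and 2.18% with all above). The 5 genes were chosen with earlier results of these data known, so these shares are not an independent comparison. The median change of the 5 genes was 0.08, because they moved in both directions, and that of all probe sets was 0.01.

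The sequences upstream of the transcription start are shown for the called genes Gas6 and Axl and for Pros1, the other ligand, since these 3 had the largest changes of the 5 genes. They are the 250 bases before the start, 5′ to 3′ along the gene, from RefSeq on GRCm38.p6, at chr8:13494536-13494785 (minus strand) for Gas6, chr7:25788734-25788983 (minus strand) for Axl and chr16:62854057-62854306 (plus strand) for Pros1. Capitals mark matches to the SP1 letters GGGCGG on either strand (read as CCGCCC on the opposite strand) and to the STAT letters TTCNNNGAA.
Gas6: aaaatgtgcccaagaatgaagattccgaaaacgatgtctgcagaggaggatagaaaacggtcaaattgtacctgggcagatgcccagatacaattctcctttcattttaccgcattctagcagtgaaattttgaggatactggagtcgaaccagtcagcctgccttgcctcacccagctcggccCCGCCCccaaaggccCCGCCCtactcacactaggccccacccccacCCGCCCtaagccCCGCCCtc
Axl: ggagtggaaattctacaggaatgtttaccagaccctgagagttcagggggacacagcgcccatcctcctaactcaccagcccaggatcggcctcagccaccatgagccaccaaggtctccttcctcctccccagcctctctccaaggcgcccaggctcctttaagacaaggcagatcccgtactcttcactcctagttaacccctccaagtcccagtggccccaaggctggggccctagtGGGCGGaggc
Pros1: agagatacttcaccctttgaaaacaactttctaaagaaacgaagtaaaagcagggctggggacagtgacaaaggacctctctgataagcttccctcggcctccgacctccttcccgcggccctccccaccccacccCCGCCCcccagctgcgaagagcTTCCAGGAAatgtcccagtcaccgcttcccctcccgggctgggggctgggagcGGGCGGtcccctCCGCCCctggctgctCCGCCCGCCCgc
All 5 genes matched an entry of the promoter table. The SP1 letters occurred in the upstream 250 bases of all 5 genes, and in 32.7% of the table's 32851 upstream windows of this length. These letters are all G or C, and all 5 genes had more G and C than the median window (52.4%). The share was 54.8% for Gas6, 64.4% for Pros1, 60.0% for Axl, 73.2% for Tyro3 and 63.6% for Mertk. The shares of windows given here were not matched for this. Gas6 held 4 copies, all on the opposite strand and within 66 bases of the start, and 4.09% of windows held at least 4. Pros1 held 5 copies, of which the 2 nearest the start overlap, Tyro3 and Mertk held 3 each and Axl held 1. The STAT letters occurred only upstream of Pros1, as TTCCAGGAA from 92 to 84 bases before the start, and in 7.02% of windows. The palindromic EBF motif, searched on both strands as well, occurred upstream of none of the 5 genes and in 0.779% of windows. A match is a description of these letters and not evidence of binding.

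Before the genes are described, some facts on the arrays bear on all values. The GEO source names speak of pre-B colonies, with an Hspa9 genotype for 4 samples, against the titles, treatments and protocols, so groups follow the titles. All 12 markers of CAR cells and Lepr+ stroma lay above the 95th percentile (4.73) of 1210 probe sets for odorant and pheromone receptors (olfactory and vomeronasal receptor genes), which served as a background because the values carry no detection call. Cxcl12 averaged 12.35 in PBS and 11.99 in G-CSF. The list of 13 neutrophil markers was also high, with list means of 7.68 to 9.06 on the PBS arrays and 8.57 to 9.35 on the G-CSF arrays. Of its genes, 2 were called higher, where 0.743% of all probe sets were. Most of the 13 macrophage markers were dim (list means 5.13 to 5.52 in PBS and 4.99 to 5.31 in G-CSF), 8 were above the background percentile, and none was called. Along the first principal component, which held 34.9% of the variance, the arrays fell into 2 sets unnamed in the labels, each with both groups, and PBS replicate 3 stood farthest out and had the narrowest spread of values (interquartile range 2.17, against 2.43 to 2.90 on the others). Set 1 held PBS replicates 1 and 2 and G-CSF replicates 1 to 3, and set 2 the remaining arrays. The sets were drawn from the same values that were tested. Adjusted p-values from fits with the set as a block, or within a set, can therefore be too small. In sorted bulk samples, fewer cells of a type and less RNA per cell cannot be told apart.

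Gas6, the ligand of all TAM receptors, was at 11.66, 11.83, 11.45 and 11.71 on PBS replicates 1 to 4 (log2 RMA intensity). On G-CSF replicates 1 to 5 it was at 9.92, 10.16, 10.18, 9.91 and 10.01. Every G-CSF array lay below every PBS array, and the gap between the groups, 1.27, was more than the spread within either. The mean went from 11.66 ± 0.16 (SD, n = 4) to 10.04 ± 0.13 (n = 5), a change of -1.63 (SE 0.14, 95% interval -1.93 to -1.33, limma adjusted p = 7.08e-05). The interval corresponds to a fall of 2.51-fold to 3.80-fold. By its p, Gas6 ranked 15 among the 21789 probe sets. Its fall was nearly the same within the sets, at -1.65 in set 1 (adjusted p = 0.00877) and -1.62 in set 2 (adjusted p = 0.0406). With any 1 array left out it stayed between -1.70 and -1.57 and the call held in all 9 fits. Of the 12 stromal markers, 6 were called lower and 0 higher, where 0.877% of all probe sets were called lower. Their changes ran from Il7 (-2.08), Adipoq (-1.69) and Angpt1 (-1.25) to Pdgfra (0.28), with a median of -0.70 (0.01 over all probe sets). The 6 that were not called ran from Foxc1 (-0.88, adjusted p = 0.214) to Pdgfra. Neutrophil markers were higher in G-CSF. B cell precursor and erythroid markers were lower, with the list means of the groups apart. Over 7 B cell genes the list means were 4.80 to 5.07 in PBS and 4.18 to 4.59 in G-CSF. Over 5 erythroid genes they were 4.82 to 5.95 in PBS and 4.19 to 4.68 in G-CSF. In each list 1 gene was called lower: Cd79a (-1.08, limma adjusted p = 0.0228) and Car1 (-3.57, adjusted p = 0.0176). The other erythroid genes ran from Slc4a1 (-0.68) to Epb42 (-0.06), so Car1 weighs heavily in that list mean. The other B cell genes ran from Rag1 (-0.70) to Pax5 (-0.005). Above the background percentile were 4 of the 7 B cell genes and 3 of the 5 erythroid genes. Cd79a was below the background percentile in both groups (4.46 in PBS), and Car1 only in G-CSF (7.37 in PBS). The part of these cells in the Gas6 values was not tested. After G-CSF the transcript was still well above background, since all 1210 receptor probe sets were dimmer than Gas6 in both groups.

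**Figure D1:**
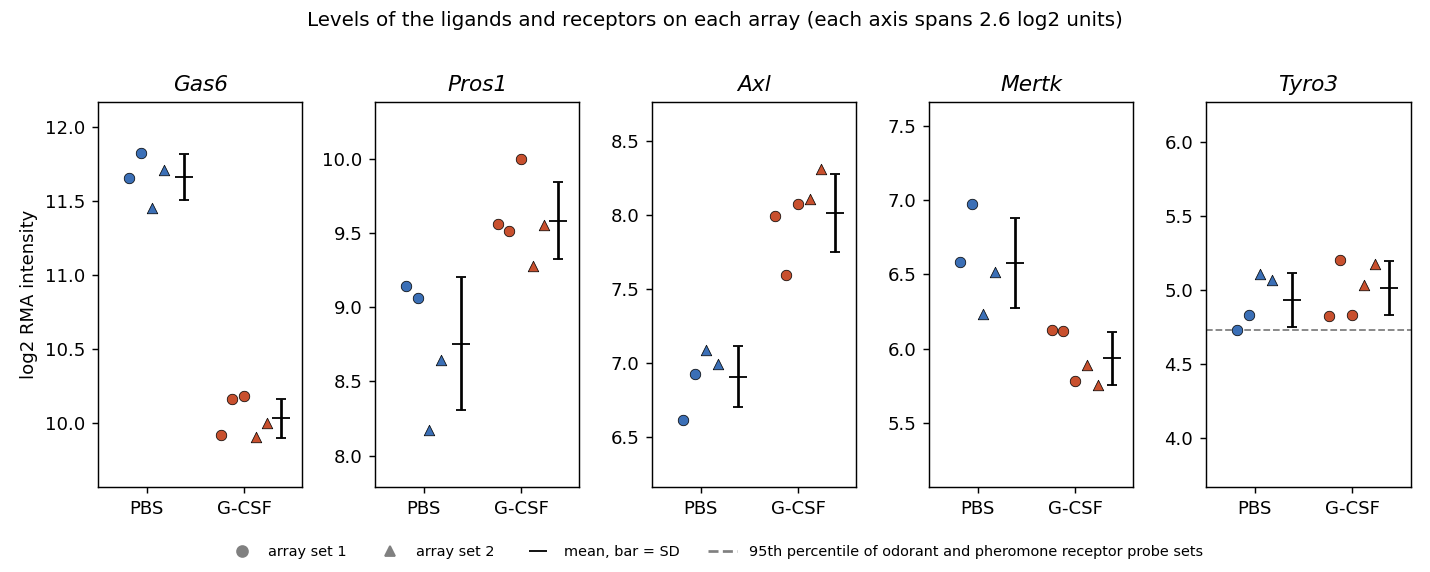
Levels of Gas6, Pros1, Axl, Mertk and Tyro3 on each array, in log2 RMA intensity, with PBS arrays in blue, G-CSF arrays in orange, circles for array set 1, triangles for set 2, and the mean with SD beside each group. The groups are apart for Gas6, Pros1, Axl and Mertk and overlap for Tyro3, which lies near the dashed background line at 4.73.

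Pros1, which encodes protein S, was at 9.15, 9.06, 8.17 and 8.65 on PBS replicates 1 to 4. On G-CSF replicates 1 to 5 it was at 9.57, 9.51, 10.001, 9.28 and 9.56. All G-CSF arrays were above all PBS arrays, but only by 0.13 between the nearest ones, and the lowest value was that of PBS replicate 3. The mean was 8.76 ± 0.45 (n = 4) under PBS and 9.58 ± 0.26 (n = 5) under G-CSF, a difference of 0.83 (SE 0.21, limma adjusted p = 0.0961) that did not pass over all genes. The difference was 0.59 in set 1 and 1.01 in set 2, and 0.63 without PBS replicate 3. With the set as a block it was 0.78 and passed (limma adjusted p = 0.0257), but the sets come from these same values. Pros1 was the gene of the 5 whose level shifted most between the sets in the PBS group, by -0.70 from set 1 to set 2. Megakaryocytes also make protein S, and of their 8 listed markers the 4 that were measured varied widely, with list means of 4.50 to 6.64 in PBS and 4.34 to 6.92 in G-CSF; their part in the Pros1 values was not tested.

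Axl, the receptor with the highest affinity for Gas6, was at 6.62, 6.93, 7.09 and 6.998 on PBS replicates 1 to 4. On G-CSF replicates 1 to 5 it was at 7.99, 7.59, 8.07, 8.11 and 8.31. All G-CSF arrays lay above all PBS arrays, with 0.51 between the nearest ones, and G-CSF replicate 2 was the lowest of its group. The mean rose from 6.91 ± 0.21 (n = 4) to 8.02 ± 0.26 (n = 5), by 1.11 (SE 0.17, 95% interval 0.74 to 1.48, limma adjusted p = 0.00533). The rise was 1.11 in set 1 and 1.17 in set 2, but with so few arrays it passed in neither set (adjusted p = 0.0634 and 0.0952). Leaving out 1 array gave 1.01 to 1.21, and the call held each time. Of the 13 macrophage markers, 5 were higher and 8 lower in G-CSF, none of them called, with a median change of -0.07. The 3 of smallest p were lower: C1qb (-0.77, limma adjusted p = 0.0538), Mrc1 (-0.79, adjusted p = 0.142) and Siglec1 (-0.41, adjusted p = 0.5475). PBS and G-CSF means were 9.92 and 10.20 for Lyz2, the brightest of the 13, and 6.81 and 7.19 for Cd68. For Adgre1, the defining surface marker, they were 3.85 and 3.78, below the background percentile (Lyz2, Cd68 and Adgre1 were picked with their values known). Neutrophil markers were higher in G-CSF, with a median change of 0.94 over the 13 genes and list means that overlapped between groups. Smooth muscle and pericyte markers were higher by a median of 0.33 over 8 genes. Their list means were apart, at 5.30 to 5.56 in PBS and 5.83 to 6.09 in G-CSF. Of the 8, 1 was called higher (Acta2, 1.57, limma adjusted p = 0.00644), where 0.743% of all probe sets were. The part of these cells in the Axl rise was not tested.

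Mertk, the receptor best known for the uptake of dying cells by macrophages, was at 6.58, 6.97, 6.24 and 6.52 on PBS replicates 1 to 4. On G-CSF replicates 1 to 5 it was at 6.13, 6.12, 5.78, 5.89 and 5.75. The G-CSF arrays lay below the PBS arrays, but by no more than 0.11 between the nearest ones, PBS replicate 3 and G-CSF replicate 1. The mean was 6.58 ± 0.31 (n = 4) under PBS and 5.93 ± 0.18 (n = 5) under G-CSF, a difference of -0.65 (SE 0.17, 95% interval -1.01 to -0.28, limma adjusted p = 0.103) that did not pass. It was -0.77 in set 1 and -0.55 in set 2. It passed without PBS replicate 3 (-0.76, adjusted p = 0.0478) and with the set as a block (-0.67, adjusted p = 0.0278). The macrophage markers, counted above for Axl, ranged from Mrc1, the mannose receptor (-0.79, adjusted p = 0.142), and C1qb, a complement subunit (-0.77, adjusted p = 0.0538), to Lyz2 (0.28) and Cd68 (0.38). Whether macrophage RNA had a part in the Mertk values was not tested.

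Tyro3, the remaining TAM receptor, was at 4.73, 4.83, 5.11 and 5.07 on PBS replicates 1 to 4. On G-CSF replicates 1 to 5 it was at 4.83, 5.20, 4.83, 5.03 and 5.17. The groups overlapped, and in PBS the set 2 arrays were the higher ones. The mean was 4.93 ± 0.18 (n = 4) and 5.01 ± 0.18 (n = 5), a difference of 0.08 (SE 0.15, limma adjusted p = 0.975). The 95% interval ran from -0.25 to 0.41, which leaves room for a rise of up to 1.32-fold. Of the 1210 receptor probe sets, 96.8% were dimmer than Tyro3, so its level was near the top of the background range and a change in a dim transcript could be understated.

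**Figure D2:**
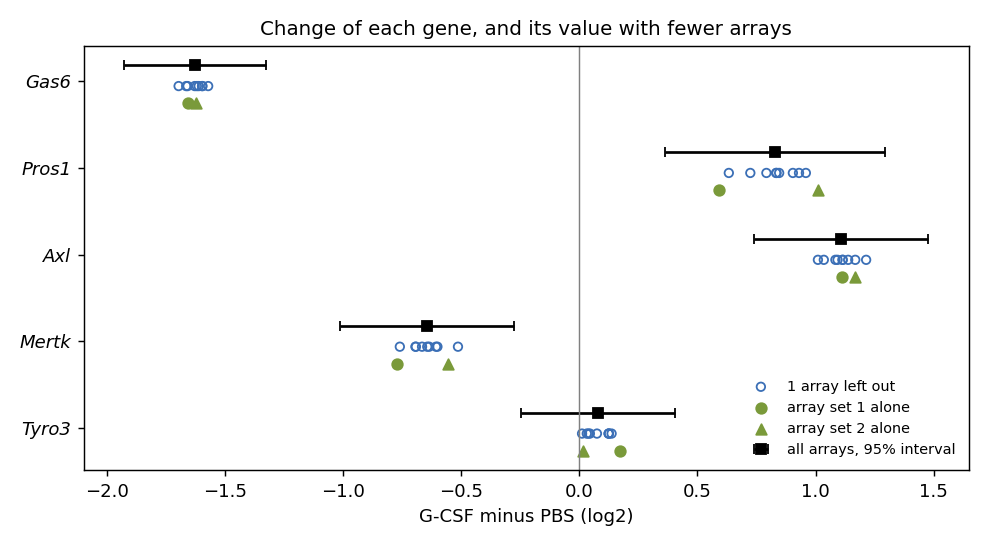
The log2 difference between G-CSF and PBS for each gene, as the value over all arrays with its 95% interval (black squares), the values with 1 array left out (open circles) and the values within array sets 1 and 2 (green circles and triangles). With 1 array left out, Gas6 lies between -1.70 and -1.57 and Axl between 1.01 and 1.21, while the Tyro3 interval spans 0.

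Whether the genes changed unequally was tested on the log2 difference of 2 genes within each array, in which any scaling of the array cancels. Each of the 10 pairs was compared between groups by an exact two-sided permutation test over the 126 splits of the arrays, where the smallest possible p is 0.00794, with adjustment over the 10 pairs. The pairs share genes and are not independent. Gas6 and Mertk were lower, and Pros1 and Axl higher, on every G-CSF array than on any PBS array. A pair of a lower and a higher gene was therefore bound to separate the groups. For these pairs the outcome followed from the values already given, and the test adds no evidence beyond them. The 2 ligands moved apart. Gas6 minus Pros1 was 2.91 ± 0.34 (n = 4) under PBS and 0.45 ± 0.20 (n = 5) under G-CSF, a 5.48-fold drop in the ratio of Gas6 to Pros1 signal (exact permutation p = 0.00794, adjusted p = 0.0132). The receptors Axl and Mertk moved apart as well. Axl minus Mertk went from 0.33 ± 0.42 to 2.08 ± 0.42, a difference of 1.75 (exact permutation p = 0.00794, adjusted p = 0.0132). Gas6 and its receptor Axl showed the largest shift of the 10 pairs, -2.73, with the same exact permutation p. Gas6 minus Mertk changed by -0.98, also at the smallest possible p. Pros1 and Axl, both higher in G-CSF, differed in change by -0.28 (exact permutation p = 0.421), with -0.05 without PBS replicate 1 and -0.54 without PBS replicate 3. After adjustment, 5 of the 6 pairs without Tyro3 passed and 3 of the 4 with it, counting the pairs whose outcome was fixed. Tyro3 was near background, so a difference against it mostly carries the change of the other gene. The pairs that did not pass were Pros1 with Axl and Pros1 with Tyro3 (0.75, exact permutation p = 0.0635, adjusted p = 0.0705). Tyro3 minus Mertk (0.73, adjusted exact permutation p = 0.0298) no longer passed without any 1 of G-CSF replicates 2 to 5, at an adjusted p of 0.0714. Its difference stayed at 0.64 to 0.73 in these tests, and with fewer splits of the arrays the exact test is coarser. The ratios are of probe set signals and say nothing of which ligand or receptor was more abundant.

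**Figure D3:**
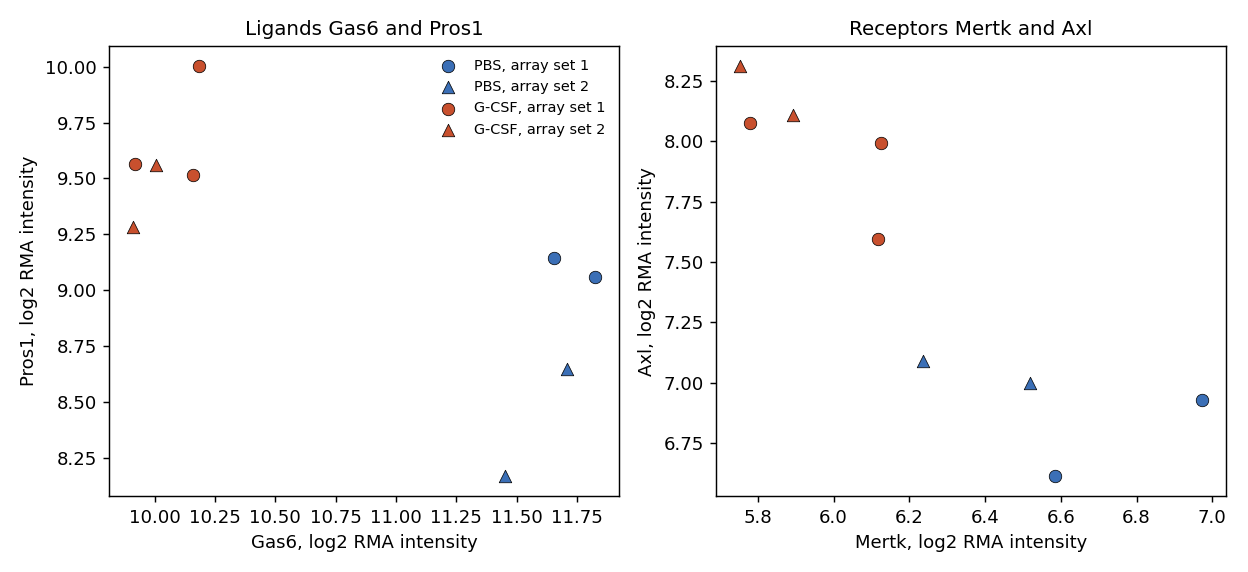
Each array by its Gas6 and Pros1 levels (left) and by its Mertk and Axl levels (right), in log2 RMA intensity, with PBS in blue, G-CSF in orange, circles for array set 1 and triangles for set 2. The G-CSF arrays lie at lower Gas6 and higher Pros1, and at lower Mertk and higher Axl, than every PBS array.

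Genes around the ligands were taken from lists chosen for their roles. Over all probe sets, 1.62% were called and the median change was 0.01, to be set beside each list. The vitamin K cycle, which supplies the carboxylated form of Gas6 and protein S, had 0 of 5 genes called in limma. Ggcx, the carboxylase itself, was at 7.54 in both PBS and G-CSF, and Vkorc1, the epoxide reductase that warfarin blocks, was at 8.17 in both (both picked with their values known). The 3 genes of smallest p were Nqo1 (-0.61, adjusted p = 0.522, unadjusted p = 0.046, and -0.96 with adjusted p = 0.01 without PBS replicate 3), Vkorc1l1 (-0.22, adjusted p = 0.913) and Aifm2 (-0.14, adjusted p = 0.960). The list median was -0.14, and Nqo1 was the only one with an unadjusted p under 0.05. Its means, 4.49 and 3.88, were both below the background percentile.

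Of 11 measured genes for other Gla proteins, 2 rose and 0 fell, with a list median of -0.01. Of all probe sets, 0.743% were called higher. Mgp, the matrix Gla protein that restrains calcification, rose 2.73-fold, from 11.43 ± 0.60 to 12.87 ± 0.11 (limma adjusted p = 0.00774). F10, coagulation factor X, rose 1.93-fold, from 5.35 ± 0.28 to 6.30 ± 0.24 (adjusted p = 0.0176), a call that was lost in 6 of the 9 fits with 1 array left out (PBS replicate 1, 2 or 4, or G-CSF replicate 1, 4 or 5), at an adjusted p of up to 0.0577. It was also lost over all probe sets (adjusted p = 0.0626) and with the array number as a block (adjusted p = 0.122). In the gene table F7, F10 and Proz stand next to each other on chromosome 8, the chromosome of Gas6, with 12 protein-coding genes between F10 and Gas6. The neighbours did not pass, with F7 at 0.19 (adjusted p = 0.819) and Proz at 0.06 (adjusted p = 0.981, picked with its values known). Both lay close to the background percentile, so a change could be understated. PBS and G-CSF means were 4.605 and 4.80 for F7, and 4.78 and 4.84 for Proz. Osteocalcin genes had no probe set with a single symbol. Of 8 coagulation partners of protein S, 0 were called (list median -0.03), led by F8 (-0.40, adjusted p = 0.721), F3 (0.32, adjusted p = 0.722) and Tfpi, an inhibitor for which protein S is a cofactor (-0.19, adjusted p = 0.949). None of the 8 had an unadjusted p under 0.05, and the means of F8 and F3 over all arrays were below the background percentile.

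TAM receptors are cut from the cell surface by the proteases Adam10 and Adam17, which releases soluble receptor that can bind Gas6. Timp3, an inhibitor of Adam17 that is held in the matrix, rose 3.09-fold, from 8.21 ± 0.37 to 9.84 ± 0.29 (limma adjusted p = 0.00141). It was the 1 gene called of 5, where 1.62% of all probe sets were called. Adam17 was lower by 0.62, at 7.94 ± 0.20 and 7.32 ± 0.15 with groups apart, and did not pass (adjusted p = 0.0632), though it passed in 4 alternatives, among them the set as a block (adjusted p = 0.0393). Rhbdf2, which escorts Adam17 to the surface, was at 0.46 (adjusted p = 0.331).

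Among 25 measured genes for signalling below TAM receptors, 0 were called (1.62% of all probe sets were), with a list median of 0.08. The 3 of smallest p were Elmo1, part of the engulfment complex that activates Rac (-0.72, adjusted p = 0.118, with groups apart, and 0.0297 with the set as a block), Pik3r1, a regulatory subunit of PI3 kinase (-0.38, adjusted p = 0.284), and Vav1, an exchange factor of blood cells (0.56, adjusted p = 0.299). These 3 had an unadjusted p under 0.05, at 0.00306, 0.0138 and 0.0154. Socs1 and Socs3, inhibitors of cytokine signalling that TAM receptors induce in phagocytes, were at 0.13 (adjusted p = 0.941) and 0.28 (adjusted p = 0.702), both picked with their values known.

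Of 24 other genes for recognising phosphatidylserine and taking up dying cells, 1 rose and 0 fell, with a list median of 0.01. Of all probe sets, 0.743% were called higher. Itgb5, the integrin chain that pairs with Itgav to bind the bridging protein Mfge8, rose 2.27-fold, from 7.88 ± 0.19 to 9.06 ± 0.32 (limma adjusted p = 0.00548). Itgav was at 0.23 (adjusted p = 0.806) and Mfge8 at 0.32 (adjusted p = 0.897), both picked with their values known. Thbs1, a secreted bridge to dying cells, was lower by 0.51 (adjusted p = 0.1001). The scavenger receptor Cd36 was at -0.89 (adjusted p = 0.128) from a level at background. Thbs1 and Cd36 both had groups apart.

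**Figure D4:**
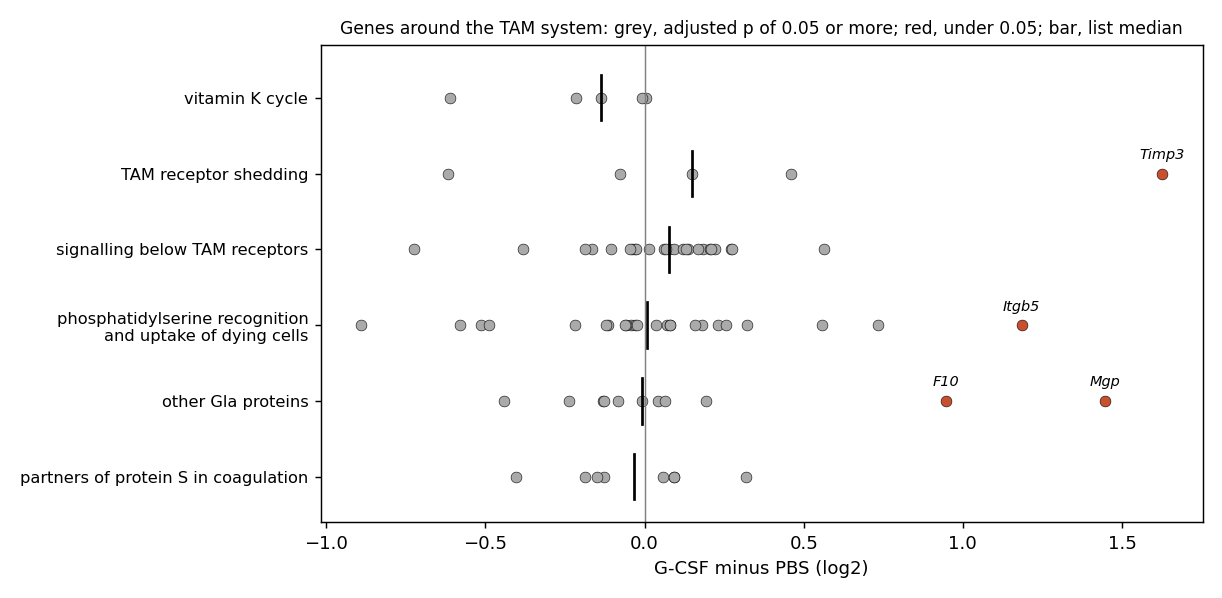
The log2 difference between G-CSF and PBS for the measured genes of 6 lists around the TAM system, 1 point a gene, grey at an adjusted p of 0.05 or more and red below it, with a bar at each list's median. Timp3, Itgb5, F10 and Mgp are the called genes, and the medians lie between -0.14 and 0.15.

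The genes most like Gas6 over the 9 arrays, by Pearson correlation among 10528 brighter probe sets, were Slc26a7 (r = 0.99), Chrdl1 (0.99), Adipoq (0.99), Pappa (0.99), Lpl (0.99) and Ogn (0.98). All 6 also fell after G-CSF, with changes of -1.08 (Pappa) to -2.79 (Slc26a7), so they share its group difference. Those most like Axl were Igsf8 (r = 0.98), Rgs20 (0.98) and Asprv1 (0.97), of which Rgs20 and Asprv1 rose by 1.75 (adjusted p = 0.00644) and 1.56 (adjusted p = 0.0134). Those most like Pros1 were Actb (0.97), Gpr176 (0.97) and Anxa2 (0.96), none of them called. Those most like Mertk were Stxbp6, Acy3 and Ghr (each 0.96), of which Ghr, the growth hormone receptor, fell by 0.90 (adjusted p = 0.0117). Those most like Tyro3 were Serinc2 (0.95), Plb1 (0.95) and Spdef (0.93), none of them called. With 9 arrays that share groups and sets, such correlations are descriptions.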

How the data were processed

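Expression was measured on Affymetrix Mouse Gene 1.0 ST arrays after amplification of small RNA amounts, per the labels' protocols. The deposited intensity values are the authors' output of RMA, run in Affymetrix Expression Console according to the submitters' processing notes; versions are not given in the sources used here. They ran from 1.73 to 15673.1 with array medians of 34.7 to 37.2, a linear scale, so log2 was taken. RMA normalises arrays to each other, so changes are relative to other transcripts; the summarised values still differed in spread between arrays. The number of arrays limits the precision, and p-values measure only the spread between arrays.

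The platform table gave 1 symbol for 21789 probe sets, several for 1621 and none for 12143; its identifiers matched 21698 in a gene table of GRCm38.p6, used for names and gene order. For list genes with several probe sets, that with the highest mean was used. The test was limma 3.58.1 (lmFit, eBayes, default settings; R 4.3.3), two-sided, without covariates. Members, lists and alternatives were chosen with earlier results of these data known. Alternatives covered the probe sets tested, eBayes settings, normalization, array weights, a damped log2 scale, blocks, array sets and left-out arrays. Named genes were the 5 genes, called list genes, list genes of smallest p up to 3 a list, and the genes most like each of the 5. On simulated data of this comparison (21789 probe sets), 4% of 50 probe sets changed by 0.5, 64% of 50 changed by 1 and 98% of 50 changed by 2 on the log2 scale were recovered, with 6 false calls. The simulated noise was independent between probe sets and arrays and held no array sets. These figures may therefore differ from those of the real arrays.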

Additional observations from a re-analysis of the deposited data

Results flagged for a closer look

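Within a group, 3 of 66 sets of values examined (23 genes and 10 pairs of genes, in each group) held 1 array whose gap to the others took up most of the group's range; chance gives about 5% of such sets. Adam17, the sheddase, was at 7.06 on G-CSF replicate 2 and at 7.36 to 7.44 on the other G-CSF arrays (gap over range 0.801). Itgb5 was at 8.49 on G-CSF replicate 1 and at 9.12 to 9.25 on the others (0.827). Axl minus Tyro3 was 2.39 on G-CSF replicate 2 and 3.08 to 3.25 on the others (0.808).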

How the results depend on the processing

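The Gas6 change kept its sign and its call in all 22 alternatives (-1.75 to -1.57, adjusted p of at most 0.0406), and Tyro3 stayed without a call in all 21 that included it. Axl kept its sign in 22 (1.01 to 1.21) and its call in all but set 1 alone (1.11) and set 2 alone (1.17), which have fewer arrays; Mgp, F10 and Itgb5 lost theirs in both sets and Timp3 in set 2. Pros1 gained a call with a further quantile normalization (0.79, adjusted p = 0.0444) and in the fit with the set block (0.78), and Mertk with array weights (-0.77, adjusted p = 0.0262), in the fit with the set block (-0.67) and in 1 of the 9 fits without 1 array (-0.76 to -0.51). The count of 353 called probe sets was 181 over all probe sets, 598 with the set block, 202 in set 1, 59 in set 2, 149 at an adjusted p under 0.01, and 210 to 318 without 1 array; it was lowest without PBS replicate 1 and was 222 and 224 without G-CSF replicates 1 and 4. With the replicate block the count was 180, with Gas6 and Axl called and the other members not. The arrays were not treated as paired, since shared replicate numbers are not said to mark a shared litter or day. Deviations of same-numbered arrays correlated at -0.28 for replicate 3, whose arrays lie in different sets, and at 0.14 to 0.35 for the others. Of the 8 arrays with a same-numbered partner, 1 correlated best with it. These correlations do not settle whether the arrays were paired. Of named genes without a call, the sign turned within set 2 for Vkorc1l1 (0.024), Tfpi (0.16) and F8 (0.13), and Aifm2 was at 0.00 without G-CSF replicate 1. The count of pairs that passed stayed at 7 to 9 of 10 in 13 alternatives, and within a set no exact test can pass. This count includes the pairs whose outcome followed from groups that did not overlap. The causes of these shifts were not tested.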

Other observations

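Deviations from the group means, which leave the treatment out, gave other likenesses. With 9 arrays and 10528 probe sets searched, correlations this high can arise without any relation, so these too are descriptions. The genes closest to Gas6 were Anxa5 (r = 0.96), Senp5 (0.96), Zfp654 (0.95), Inhbb (0.95), Cep120 (0.95) and Parp14 (0.95), of which Inhbb, an activin subunit, rose by 1.79 after G-CSF (limma adjusted p = 9.56e-05), opposite to Gas6. The genes closest to Pros1 were Steap4 (0.98), Psma7 (0.98) and the ribosomal protein gene Rps12 (0.98). Those closest to Axl were Nin, Kmt2a and Pilra (each 0.96), those closest to Mertk were Csnk1d (0.97), Ptpn2 and Zfp579, and those closest to Tyro3 were Hcrt (0.98), Cops6 and Serinc2 (each 0.95).

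From set 1 to set 2, Pros1 and Mertk were lower in both groups (Pros1 by -0.70 in PBS and -0.27 in G-CSF, Mertk by -0.40 and -0.19), whereas Axl was higher in both (0.27 and 0.32). For Gas6 the shifts were -0.16 and -0.13, small beside its change after G-CSF.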
